A study of Mus musculus with 2 samples.

Results

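Nonclassical monocytes that carried little neutrophil RNA were compared between 2 single-cell RNA libraries of sorted mouse lung leukocytes. A barcode, the tag that marks the RNA of a droplet and normally of a cell, was kept if it held 500 or more UMIs from 200 or more genes and no more than 10% of them came from mitochondrial genes. A UMI (unique molecular identifier) counts 1 captured RNA molecule. A kept barcode was taken as a member where the UMIs of Ace, Adgre4, Treml4 and Cd300e summed to at least 3 and S100a8 plus S100a9 made up less than 1% of all its UMIs. Vcan, F13a1 and Ms4a4c had to sum to less than 3 unless Ace and Treml4 summed to at least 2. Members had at most 3 UMIs over C1qa, C1qb and C1qc, at most 3 of Ear1 and none of Cd79a or Cd3e. The levels of these genes were set by the rule and are given as descriptions. The rule found 524 members among 19087 kept barcodes, 248 of 9691 in the control library and 276 of 9396 in the exposed library.

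The control library came from mice with no treatment. The exposed library came from mice that breathed diesel exhaust particles (DEP) at 500 µg/m³ in a whole-body system, for 1 hour on 5 days of each of 2 weeks. Both libraries are labelled Ccr2-/- (KO), the control as CD45.1+ and the exposed as CD45.3+, although the design of the series names wild-type C57BL/6J mice as well. Ccr2 encodes the chemokine receptor by which classical monocytes leave the bone marrow, and all of the mice compared here carry its deletion by label. The labels give neither the age nor the number of mice and do not say whether mice were pooled. The lungs were perfused and digested with collagenase and DNase, and CD45+ cells were sorted, so the cells are lung leukocytes that perfusion left behind. With 1 library a group there is no replicate check and no test. Exposure, CD45 label, animals and library preparation cannot be told apart. Ranges in square brackets are exact 95% intervals and cover counting error only.

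Nonclassical monocytes are the Ly6C-low monocytes that crawl along the walls of small blood vessels and survey the endothelium. They are known to develop mostly from Ly6C-high classical monocytes, and they depend on the nuclear receptor Nr4a1 and on signals through the receptor encoded by Csf1r. Classical monocytes, in contrast, enter inflamed tissue and carry high levels of Ly6c2, Ccr2 and Vcan.

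Ccr2 transcripts were counted in both libraries despite the label. The members held 186 [166 to 208] Ccr2 counts per 1000000 UMIs (CPM) in control and 354 [332 to 377] CPM in the exposed library. Classical monocytes, taken by a parallel rule that uses Ly6c2 and Ccr2, held 626 and 805 CPM. A 3′ tag can lie outside a deleted stretch and no wild-type library was analysed here, so these counts do not check the genotype label. The libraries are therefore called the library labelled control and the library labelled exposed, shortened to control and exposed.

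The deposited barcodes held 62047730 UMIs in control and 67030914 in the exposed library. The members held 1651917 and 2779077 of these. A control member had a median of 5599 UMIs and an exposed member 8787.5, with ranges of 775 to 32348 and 1428 to 36133. Exposed members thus held more UMIs per barcode, and a rule that asks for a number of UMIs admits a barcode of greater depth more easily. The libraries shared 23 barcode sequences, none of them a member.

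The label was checked against Eno3, a muscle-type enolase and the only marker of the cell type that the rule did not use. Eno3 stood at 205 CPM in control members and 184 CPM in exposed members. It stood at 2.00 and 1.87 CPM in classical monocytes, 6.25 and 3.20 CPM in B cells, and 1.87 and 1.92 CPM in neutrophils. Members of both libraries thus held about the same Eno3, far above the other 3 cell classes. By the ratio to classical monocytes the leading genes, in order, were Fabp4, Slc12a2, Eno3, Cd36, Ear2, Pglyrp1, Fcgr4, Tcf7l2, Cyth3 and Spn. Fabp4 binds fatty acids inside the cell, Cd36 takes up lipids and dying cells, Fcgr4 encodes an IgG receptor and Spn encodes CD43. The ratios ran from 100.8-fold (Fabp4) to 5.21-fold (Fcgr4) in the exposed library and from 222.8-fold (Slc12a2) to 7.17-fold (Spn) in control. Ptprc, which encodes CD45, stood at 1695 and 1461 CPM in the members.

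Of the markers of monocytes, the 5 nonclassical ones summed to 1899.6 CPM in control and 1281 CPM in exposed members, and the 6 classical ones to 1261 and 1576 CPM. Ly6g, Ngp, Camp and Ltf, which neutrophils make during granule formation, were at 0 in control members, and Camp and Ltf in exposed members. The 13 neutrophil markers summed to 1332 CPM in control and 1457 CPM in exposed members. The 10 alveolar macrophage markers, which include Ear2 and Chil3, summed to 1542 and 2049 CPM, and Ear10 was at 0 in both. The 6 basophil or mast cell markers summed to 1.21 and 0.360 CPM, and 5 of the 6 were at 0 in each library. By gene sets chosen after the values were seen, 16 control and 16 exposed members held at least 5 UMIs of genes of another cell type or fewer than 5 UMIs over 7 monocyte genes. Dendritic cell genes accounted for 6 and 9 of these barcodes, and endothelial genes, where Ace is also expressed, for 3 and 1. In the 3 control barcodes with endothelial genes the 7 monocyte genes summed to at most 1 UMI. In 1 exposed barcode 1609 UMIs came from genes of stromal cells. Each result below is therefore also given without these barcodes where they move it.

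The limit on neutrophil RNA removed 112 of 360 otherwise matching barcodes in control (31.1%) and 133 of 409 in the exposed library (32.5%). The removed barcodes had medians of 5.20% and 6.62% of their UMIs in S100a8 and S100a9, against 0.0155% and 0.0213% in the members. Just inside the limit, with 0.5% to 1%, lay 8 and 14 members, and just outside it, with 1% to 2%, lay 12 and 14 barcodes. At the marker limit, 26 and 34 members held exactly 3 marker UMIs, and 43 and 28 barcodes with 2 stayed outside. The median sum was 9 in both libraries. All 4 markers were present in 83 control and 82 exposed members.

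The members were not uniform in the balance of nonclassical and classical transcripts. Only the clause on Ace and Treml4 admitted 66 control members (26.6%) and 119 exposed members (43.1%), since they held 3 or more UMIs of Vcan, F13a1 and Ms4a4c. Members free of other types were divided, after the values were seen, at 0.1% of UMIs in the 4 markers into marker-rich and marker-poor members. Marker-rich members numbered 180 in control and 163 in exposed, and marker-poor members 52 and 97. This is a cut through a continuous range: 19 control and 29 exposed members lay between 0.08% and 0.12%. The median barcode of the marker-rich members held 0 CPM of Ly6c2 in both libraries. The median marker-poor barcode held 624 CPM of Ly6c2 in control and 366 CPM in the exposed library. For Ccr2 the median marker-poor barcode held 355 and 451 CPM, and the median marker-rich barcode 0 and 0. Eno3 in the median marker-rich barcode stood at 258 and 361 CPM and was 0 in the median marker-poor barcode of either library. A stricter set of marker-rich members with no Ly6c2 UMI and fewer than 3 UMIs of Vcan, F13a1 and Ms4a4c held 141 control and 119 exposed barcodes. These are called Ly6c2-free members.

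**Figure D1:**
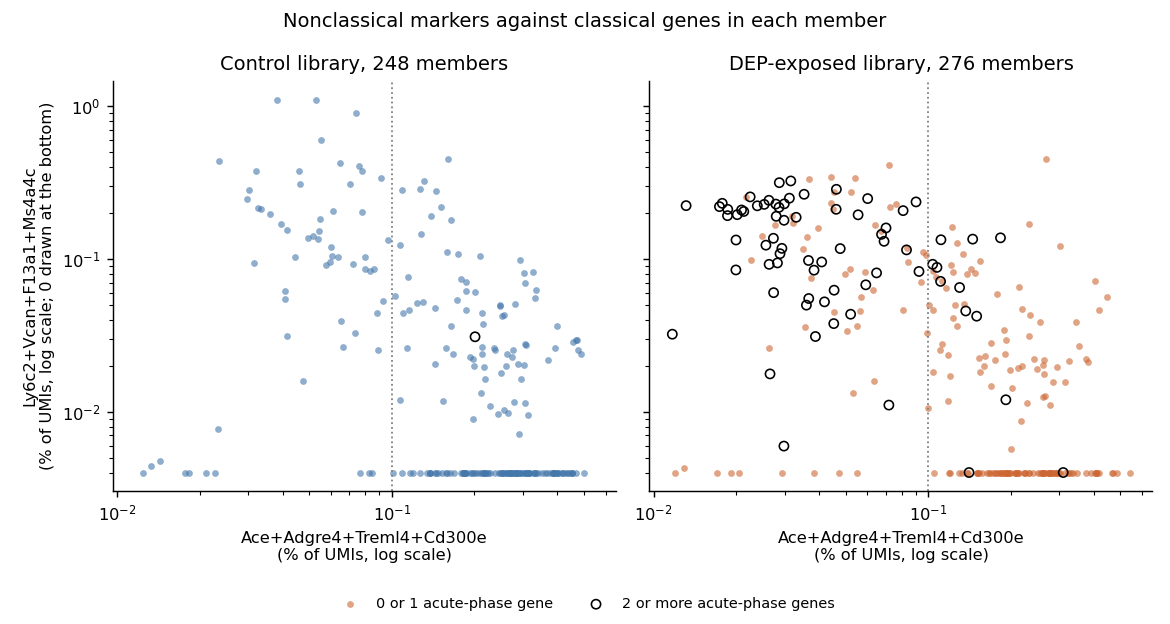
Each point is a member, with the 4 nonclassical markers (x axis, % of UMIs, log scale) against Ly6c2 plus Vcan, F13a1 and Ms4a4c (y axis, % of UMIs, log scale, 0 drawn at the bottom) for control (left, 248 members) and exposed (right, 276 members). The dotted line is the 0.1% limit between marker-poor and marker-rich members. Open circles hold 2 or more of Lrg1, Saa3, Lcn2, Prtn3, Igfbp6 and Cd38, labelled acute-phase genes, 1 member in control and 71 in the exposed library.

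The plot of markers against classical genes shows a continuous spread in both libraries, with more exposed members at the marker-poor end. Marker-poor members made up 22.4% [17.2% to 28.3%] of control members free of other types and 37.3% [31.4% to 43.5%] of exposed ones. Ly6c2-free members made up 56.9% [50.4% to 63.1%] of all control members and 43.1% [37.2% to 49.2%] of all exposed ones. Marker-poor members were also the deeper barcodes, with medians of 8582 and 12603 UMIs against 4816.5 and 6370 in marker-rich members. The part of depth in this difference was not tested.

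Members made up 2.56% [2.25% to 2.89%] of kept control barcodes and 2.94% [2.61% to 3.30%] of kept exposed barcodes. The exposed over control ratio was 1.15 [0.963 to 1.37], an interval that includes 1. The direction depended on which members were counted. The ratio was 1.92 [1.36 to 2.75] for marker-poor members, 0.934 [0.751 to 1.16] for marker-rich members and 0.870 [0.676 to 1.12] for Ly6c2-free members. With every kept barcode of at least 3000 UMIs thinned to 3000 before the rule was applied, 174 of 6666 control and 164 of 7260 exposed barcodes qualified, a ratio of 0.865 [0.695 to 1.08]. Classical monocytes made up 2.61% and 4.49% of kept barcodes, a ratio of 1.72 [1.47 to 2.02]. Members were 49.5% of all barcodes that met either monocyte rule in control and 39.5% in the exposed library, a ratio of 0.799 [0.670 to 0.952].

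Across genes, the members' UMIs were summed per library and each gene's exposed over control ratio was taken in CPM. Genes with at least 20 UMIs over both libraries, 8447 of them, were compared. A gene was called higher or lower where the end of its 95% counting interval nearest to no difference lay beyond 1.5-fold. By this rule 84 genes (0.994%) were higher and 84 genes (0.994%) were lower in exposed members, and 42% of all compared genes had a ratio above 1. The median log2 ratio over all compared genes was -0.09. Centring on the median ratio over 4016 genes, or scaling by TMM, moved every log2 ratio up by 0.11 or 0.09. The split of calls became 112 higher and 64 lower, or 104 and 65. Of the 84 higher genes, 29 had over a 25% share of their UMIs in the higher library in 1 barcode, as had 38 of the 84 lower genes. Such genes are not named below except as members of a list.

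**Figure D2:**
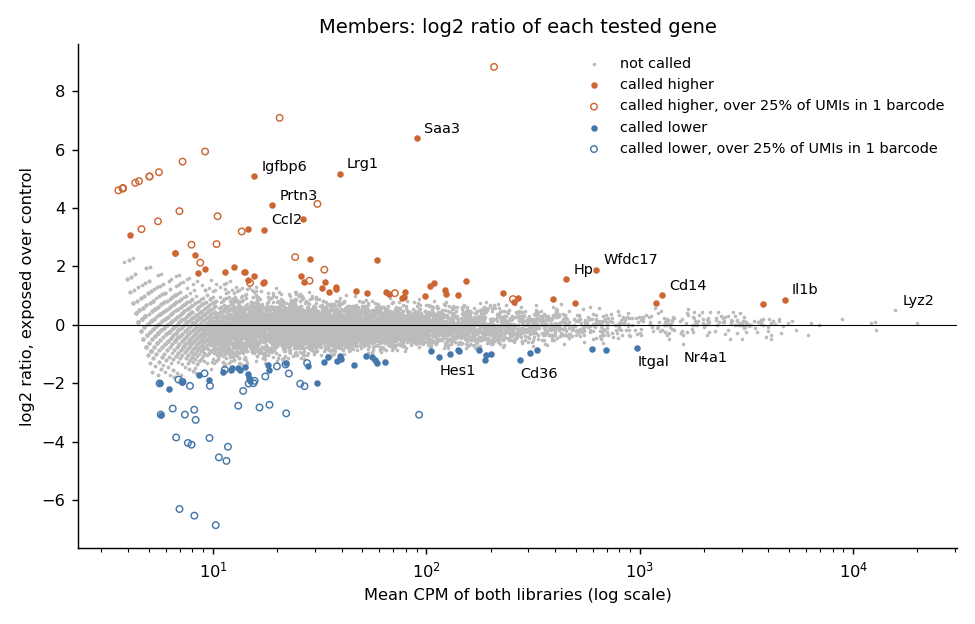
Log2 ratio of exposed over control (y axis) against mean CPM of both libraries (x axis, log scale) for the 8447 compared genes of the members; colored points are the 84 genes called higher and the 84 called lower, and open circles have over 25% of their UMIs in 1 barcode. The largest ratios belong to low-count genes, and Wfdc17, Hp, Cd14 and Il1b stand above 0 among abundant genes.

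The plot of ratios against abundance shows that most of the very large ratios came from genes below about 100 CPM. The calls were repeated in narrower sets of members. Without the barcodes of other types, 82 of 8013 genes (1.02%) were called higher and 47 (0.587%) lower. In marker-rich members 27 of 6832 (0.395%) were higher and 21 (0.307%) lower. In Ly6c2-free members 10 of 5825 (0.172%) were higher and 32 (0.549%) lower. Under the rule at 3000 UMIs, 16 of 5125 (0.312%) were higher and 14 (0.273%) lower. Of the 84 genes higher in all members, 55 were also called without the other types, 15 in marker-rich members, 7 in Ly6c2-free members and 10 under the rule at 3000 UMIs. Of the 84 lower genes the numbers were 31, 10, 6 and 6. Hence most calls in all members were not called again in marker-rich members, in Ly6c2-free members or under the rule at 3000 UMIs, sets that also left fewer UMIs to call them with.

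Wfdc17, Hp, Il1b and AY036118 were called higher in all 5 of these sets, a list drawn up after the values were seen. Wfdc17 encodes a small secreted protein of the whey acidic protein family and lies at chr11:83703991-83706268 (mm10). It was counted 438 times in control members and 2727 times in exposed members. These counts were 265 [241 to 291] CPM and 981 [945 to 1019] CPM, 3.70-fold [3.34 to 4.10] higher in the exposed library. In Ly6c2-free members Wfdc17 stood at 37.6 and 177 CPM, on 25 and 124 UMIs, a log2 ratio of 2.21 [1.61 to 2.92]. Hp encodes haptoglobin, the plasma protein that binds free haemoglobin, and lies at chr8:109575128-109579172. It stood at 229 [206 to 253] CPM in control and 674 [643 to 705] CPM in exposed members, 2.94-fold [2.63 to 3.30] higher. In Ly6c2-free members Hp stood at 132 and 521 CPM, a log2 ratio of 1.97 [1.64 to 2.33].

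Il1b encodes interleukin 1 beta, a central inflammatory cytokine, and lies at chr2:129364570-129371139. It was the most abundant of the genes called higher by name, with 3392 [3304 to 3482] CPM in control and 6161 [6069 to 6254] CPM in exposed members. The ratio was 1.82-fold [1.76 to 1.87]. Il1b stood at 3174 and 5813 CPM in marker-rich members and at 2452 and 5141 CPM in Ly6c2-free members, a log2 ratio of 0.87 in the former and 1.07 [0.98 to 1.15] in the latter. AY036118 stood at 147 and 311 CPM in all members, and its log2 ratio was 1.08 in them and 1.55 [1.20 to 1.93] in Ly6c2-free members. In Ly6c2-free members the log2 ratio of each of these 4 genes was larger than in all members, while in marker-rich members that of Wfdc17 was smaller, at 1.60 against 1.89.

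Neutrophils hold Il1b, Hp and Wfdc17 at 15022, 1085 and 541 CPM in control, so their share in the members was computed. If all S100a8 and S100a9 UMIs of the members came from neutrophils at the neutrophils' own ratio, they would bring 1.73% of the control members' Il1b UMIs and 1.36% of the exposed members'. For Hp these shares were 1.85% and 1.04%, and for Wfdc17 0.796% and 0.472%. In members with less than 0.25% of UMIs in S100a8 and S100a9 the log2 ratios were 0.96 for Il1b, 1.55 for Hp and 1.81 for Wfdc17. For Lcn2 the neutrophil share was 110.2% in control and 16.2% in exposed members, and for Retnlg, a neutrophil transcript, 152% and 100.3%. The rule's limit on S100a8 and S100a9 bounds these shares beforehand, so they are given as a description.

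**Figure D3:**
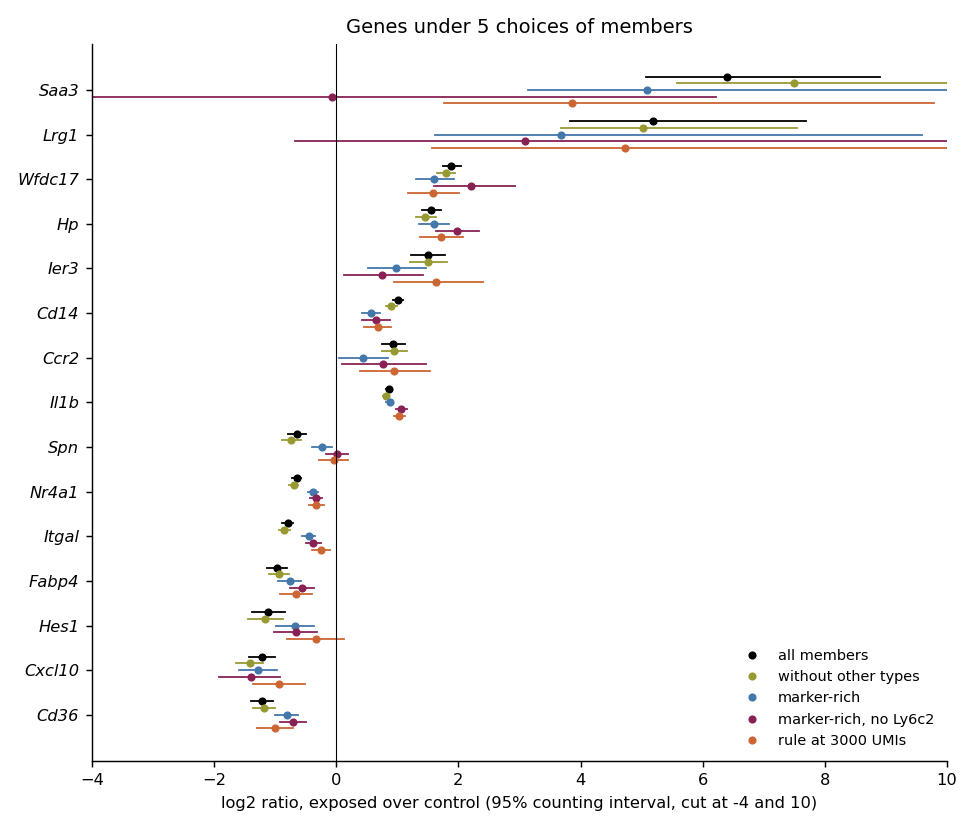
Log2 ratio of exposed over control (x axis, points, with 95% counting intervals drawn from -4 to 10) for 15 genes (y axis) in all members and in 4 narrower choices of members, given by color. Wfdc17, Hp and Il1b stay above 0 and Cd36 and Cxcl10 below 0 with every interval clear of 0, whereas Spn is at 0.01 in Ly6c2-free members, where Saa3 rests on 1 UMI in each library.

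The plot of 15 genes under 5 choices of members shows which ratios depend on the choice and how wide their intervals are. Genes of a list called acute-phase were among those with the largest ratios, in marker-poor and in marker-rich members. The 11 genes of this list were chosen from exposed classical monocytes of these same libraries, so their direction is not independent evidence. The name does not cover every gene: the list also holds Prtn3, Igfbp6, Cd38 and Vcan, and Vcan is a gene of the rule. In all members 9 were compared, 9 had a ratio above 1 and 8 were called higher, with a median log2 ratio of 3.64. In marker-rich members 6 were compared, 6 had a ratio above 1 and 5 were called higher, with a median of 2.92, on few UMIs (1 and 62 for Saa3). Over all genes 0.994% were called higher in all members and 0.395% in marker-rich members.

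Saa3 encodes serum amyloid A3, an acute-phase protein made outside the liver, and lies at chr7:46711998-46715700. It was counted 3 times in control and 496 times in exposed members. These were 1.82 [0.375 to 5.31] and 178 [163 to 195] CPM, a ratio of 98.3-fold [33.4 to 478]. Only 38 of 276 exposed members held any Saa3, and the highest held 114 UMIs. Lrg1 encodes a leucine-rich glycoprotein that modifies TGF-beta signalling and was counted 3 and 213 times, at 1.82 [0.375 to 5.31] and 76.6 [66.7 to 87.7] CPM. Lcn2 encodes lipocalin 2, which binds bacterial iron carriers, and was counted 6 and 136 times, at 3.63 and 48.9 CPM. Prtn3, proteinase 3 of granulocyte and monocyte precursors, was counted 3 and 100 times, at 1.82 and 35.98 CPM. Igfbp6, an insulin-like growth factor binding protein, was counted 1 and 85 times, and Cd38, an enzyme that consumes NAD, 4 and 74 times.

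The promoters of Saa3, Lrg1 and Lcn2 are shown because these 3 genes were called together in the exposed members and lead the list. Each is the 250 bases before the RefSeq start site of build GRCm38.p6, read 5′ to 3′ on the strand of the gene, at chr7:46715677-46715926 (minus), chr17:56121947-56122196 (minus) and chr2:32387740-32387989 (minus). Capitals mark a match on either strand to TTGCNNAA, a core of the C/EBP site, where N is any base.
Saa3: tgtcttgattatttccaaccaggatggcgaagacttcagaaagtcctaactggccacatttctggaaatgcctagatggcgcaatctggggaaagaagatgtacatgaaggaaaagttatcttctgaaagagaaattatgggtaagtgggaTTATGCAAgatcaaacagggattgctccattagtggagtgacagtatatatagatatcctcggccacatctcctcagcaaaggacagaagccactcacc
Lrg1: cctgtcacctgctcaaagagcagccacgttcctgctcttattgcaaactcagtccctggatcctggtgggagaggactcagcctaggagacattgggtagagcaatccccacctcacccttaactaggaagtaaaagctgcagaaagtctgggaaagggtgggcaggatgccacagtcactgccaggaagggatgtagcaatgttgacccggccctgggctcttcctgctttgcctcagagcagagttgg
Lcn2: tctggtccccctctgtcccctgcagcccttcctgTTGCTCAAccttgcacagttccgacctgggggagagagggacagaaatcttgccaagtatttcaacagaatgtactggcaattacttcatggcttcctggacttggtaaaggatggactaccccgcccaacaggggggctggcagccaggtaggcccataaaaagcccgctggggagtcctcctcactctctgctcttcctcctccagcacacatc
A match lay 99 to 92 bases before the start of Saa3 (TTATGCAA, the motif on the other strand) and 216 to 209 bases before that of Lcn2 (TTGCTCAA), and none was found in the window of Lrg1. Such a match is held by 9.56% of 32851 RefSeq promoter windows of this length. The NF-kB consensus (in 0.356% of windows) was not found on either strand of the 3 windows. Windows were present for 7 of 8 genes looked up, and those of Prtn3, Igfbp6, Cd38 and Wfdc17 held no match to any of these motifs. These are matches of letters and not evidence of binding.

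Counted per barcode, 1 of 248 control members (0.403%) and 71 of 276 exposed members (25.7% [20.7% to 31.3%]) held 2 or more of Lrg1, Saa3, Lcn2, Prtn3, Igfbp6 and Cd38. In marker-poor members the numbers were 0 of 52, which allows up to 6.85%, and 53 of 97 (54.6% [44.2% to 64.8%]). In marker-rich members they were 1 of 180 (0.556%) and 11 of 163 (6.75%). In Ly6c2-free members they were 0 of 141 and 1 of 119 (0.840%). Classical monocytes gave 0 of 253 and 195 of 422 (46.2%), and B cells, at medians of 3472 and 3712 UMIs, gave 3.13% in both libraries. For 2 or more genes the exposed Ly6c2-free members, at a median of 5136 UMIs, did not exceed the level of B cells. The exposed marker-poor members did, but at a median of 12603 UMIs, a depth the B cells do not match. B cells do not give a background level, since 32.9% of control and 33.97% of exposed B cells held 1 or more of these genes. In Ly6c2-free members 3.55% [1.16% to 8.08%] of control and 12.6% [7.23% to 19.9%] of exposed barcodes held 1 or more. Their median depths were 4128 and 5136 UMIs, and the part of depth in this difference was not tested.

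**Figure D4:**
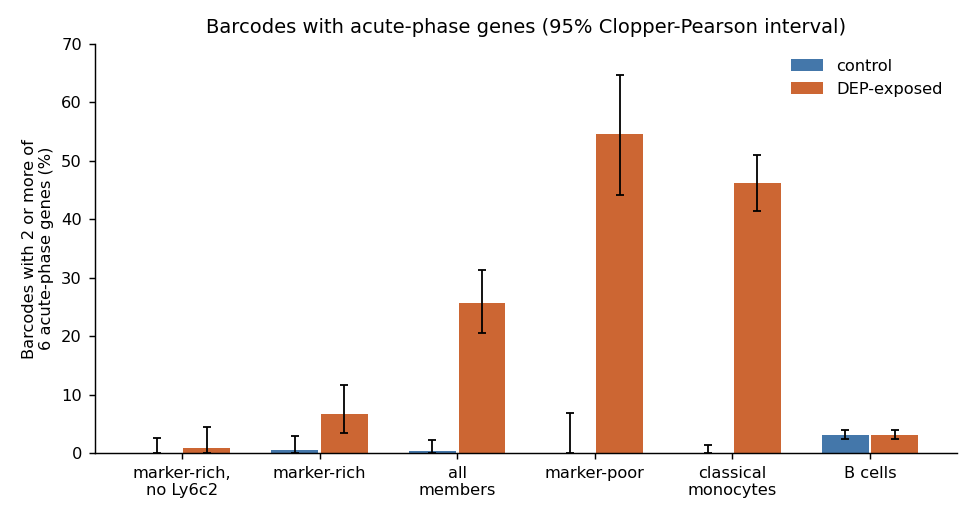
Percent of barcodes (y axis) with 2 or more of Lrg1, Saa3, Lcn2, Prtn3, Igfbp6 and Cd38 in each class (x axis), control and exposed by color, with 95% Clopper-Pearson intervals. Exposed marker-poor members reach 54.6% and exposed classical monocytes 46.2%, and exposed Ly6c2-free members 0.840%.

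The bars by class place the exposed marker-poor members beside classical monocytes. The 71 exposed members with 2 or more of these genes had a median of 15198 UMIs, against 6969 in the other 205. Their median share of UMIs in the 4 nonclassical markers was 0.0366% against 0.178%. Their share in Ly6c2, Vcan, F13a1 and Ms4a4c was 0.130% against 0.0147%, and 66 of the 71 held 3 or more UMIs of the last 3 genes. Their S100a8 and S100a9 share, 0.0188%, was close to the 0.0221% of the others. The rule's limit on these 2 genes bounds both shares beforehand, so they are given as a description. Doublets of a nonclassical and a classical monocyte cannot be told apart here from cells that hold both sets of RNA, and simulated-doublet scores removed 12 exposed and 3 control members. When less than 3 UMIs of Vcan, F13a1 and Ms4a4c were required of all members, the log2 ratio of Saa3 was -0.13 [-3.03 to 2.77].

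Other genes of classical monocytes were also higher in exposed members. Of 19 compared genes on a list outside the rule, 15 had a ratio above 1, 6 were called higher and none lower. Over all genes 0.994% were called in each direction. The list's median log2 ratio was 0.51, against -0.09 over all genes. Cd14, a co-receptor for bacterial lipopolysaccharide, stood at 842 and 1697 CPM, a log2 ratio of 1.01 [0.92 to 1.10]. Plac8 stood at 2840 and 4674 CPM (0.72), Ccr2 at a log2 ratio of 0.93 [0.74 to 1.12], and Chil3, a chitinase-like protein, at 890.5 and 1488 CPM (0.74). Lyz2, lysozyme, was at 0.51 and not called. Ly6c2 itself went the other way, with 468 [436 to 502] CPM in control and 326 [305 to 348] CPM in exposed members, a log2 ratio of -0.52 that was not called. The list's median was 0.34 in marker-rich and 0.19 in Ly6c2-free members, where only Hp was called. Vcan, which the rule used, stood at 20.6 and 97.2 CPM.

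Genes of nonclassical identity and survival were lower in exposed members as a list. Of 26 compared genes 1 had a ratio above 1, 4 were called lower and none higher. Over all genes 0.994% were called in each direction. The list's median log2 ratio was -0.35, against -0.09 over all genes. Nr4a1, on which these cells depend, stood at 1950 [1884 to 2019] CPM in control and 1246 [1205 to 1288] CPM in exposed members, a log2 ratio of -0.65 [-0.72 to -0.58] that fell short of a call. Spn stood at 441 and 281 CPM (-0.65), Fcgr4 at 306 and 211 CPM (-0.54), and the fractalkine receptor gene Cx3cr1 at 275 and 202 CPM (-0.45). Itgal, the alpha chain of the integrin LFA-1 by which these monocytes crawl, was called lower at 1233 and 712 CPM (-0.79 [-0.88 to -0.70]). Csf1r was at -0.14 and Cebpb, a transcription factor of this lineage, at -0.10. The list's median was -0.16 in marker-rich members and -0.05 in Ly6c2-free members, with 1 gene and none called lower, against medians over all genes of -0.02 and -0.03. In the latter Spn was at 0.01 [-0.17 to 0.20], Eno3 at 0.42, and Nr4a1 at -0.33 [-0.43 to -0.23]. The rule's own markers are given as a description only, since members were chosen by them. Ace stood at 763 and 428 CPM and Cd300e at 182 and 100.0 CPM. Under the rule at 3000 UMIs Ace was at -0.30 [-0.49 to -0.12], Adgre4 at -0.05 [-0.28 to 0.17] and Cd300e at -0.03 [-0.38 to 0.32]. In Ly6c2-free members Ace was at -0.43 [-0.58 to -0.27], Cd300e at -0.16 [-0.43 to 0.11], Adgre4 at -0.19 and Treml4 at 0.16. The parts of the members' makeup and depth in these differences were not tested.

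Cd36 and Cxcl10 were the abundant genes called lower by the largest ratios. Cd36, at chr5:17781690-17888801, stood at 384 [355 to 415] CPM in control and 165 [150 to 181] CPM in exposed members, 2.32-fold [2.06 to 2.63] lower. It stood at 555 and 316 CPM in marker-rich members and at 701 and 427 CPM in Ly6c2-free members, log2 ratios of -0.81 and -0.71 [-0.93 to -0.50]. It was called lower in the former and not called in the latter. Cd36 was nearly absent from classical monocytes, at 7.59 and 5.42 CPM. Cxcl10, an interferon-induced chemokine that attracts T cells, lies at chr5:92346638-92348889 and stood at 264 [240 to 290] and 114 [102 to 127] CPM, 2.31-fold [2.00 to 2.68] lower. It stood at 269 and 110 CPM in marker-rich and at 182 and 68.6 CPM in Ly6c2-free members, on 121 and 48 UMIs in the latter. Only 52 of 248 control members and 66 of 276 exposed members held Cxcl10, so the share of positive members was not lower in the exposed library. Under the rule at 3000 UMIs Cd36 stood at 586 and 293 CPM, and the log2 ratio of Cxcl10 was -0.93 [-1.37 to -0.51] and not called. Both genes were thus at a lower level in exposed members in each narrower set shown.

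Further genes were called lower in all members. Csf1, the ligand of the receptor these cells depend on, stood at 53.3 and 22.7 CPM in all members, on 16 and 25 positive members, and at 91.7 and 27.1 CPM in Ly6c2-free members, where it was called again at -1.73 [-2.58 to -0.99]. Cd83, an activation marker, stood at 895 and 494 CPM and was called lower in marker-rich members too. Both were named after their values were seen. Fabp4 stood at 407 and 207 CPM (-0.97) and at 758 and 513 CPM in Ly6c2-free members (-0.56 [-0.76 to -0.37]). It was called neither there nor in marker-rich members. Hes1, a target of Notch signalling, stood at 157 and 72.7 CPM (-1.11), the thrombomodulin gene Thbd at 90.2 and 37.1 CPM (-1.28), the VEGF receptor gene Flt1 at 80.5 and 34.5 CPM (-1.22), and Tgfbr3, a co-receptor for TGF-beta, at 40.6 and 15.1 CPM (-1.42). In Ly6c2-free members these 4 genes were at -0.66, -0.92, -0.83 and -0.91, and none was called there. The antisense transcript AC163018.1, whose counting by strand is not given in the sources used here, the integrin gene Itga1, Ankrd50 and Trp53bp1 were lower too, counted 109 and 71, 39 and 17, 25 and 11, and 17 and 6 times. Without the barcodes of other types Itga1 was counted 11 and 9 times, a log2 ratio of -1.07 [-2.53 to 0.33]. Ankrd50 was then at -1.26 and Trp53bp1 at -1.85 [-3.59 to -0.41], and neither these nor Itga1 were called. Cadm1 rested on the barcodes of other types, with a log2 ratio of -1.81 in all members and 0.79 without them.

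The other genes called higher by the naming rule were Ier3, an early response gene, at 79.9 and 226 CPM (log2 ratio 1.50), Ms4a6d at 58.1 and 159 CPM (1.45), the T cell co-stimulator gene Tnfsf9 at 58.7 and 150.1 CPM (1.35), and the collagenase gene Mmp8 at 12.1 and 39.6 CPM (1.68). In marker-rich members their log2 ratios were 0.98, -0.16, 0.89 and 0.45, and none was called. Ccl2, a ligand of Ccr2, was counted 5 times in 4 control members and 88 times in 17 exposed members. It was called in marker-rich members on 1 and 21 UMIs, and Ly6c2-free members held 0 and 1 UMI of it.

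In all members inflammatory genes did not move in 1 direction as a group beside Il1b. Of 32 compared cytokine, chemokine and NF-kB genes 16 had a ratio above 1, and 2 were called higher (Il1b and Ccl2) and 2 lower (Cxcl10 and Csf1). Over all genes 0.994% were called in each direction. Nfkbia, the inhibitor that NF-kB induces, stood at 2555 and 3363 CPM (0.40), Tnf at 208 and 136 CPM (-0.62), Cxcl2 at 1619 and 1936 CPM (0.26) and Nlrp3, which drives release of interleukin 1 beta, at 163 and 182 CPM (0.16). In marker-rich members 2 of 31 compared genes of the list were called higher and 5 lower, Ccl4, Csf1 and Cxcl10 among the latter. Over all genes compared there 0.395% were called higher and 0.307% lower. The list's median there was -0.18, against -0.02 over all genes.

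Antigen presentation genes depended on which members were counted. Of 13 compared MHC class II genes none was called in all members and the median log2 ratio was -0.28. Without the barcodes of other types, which include dendritic cells by their genes, the median was 0.10. In marker-poor members it was 0.94, against -0.07 over all 6226 genes compared there. In Ly6c2-free members it was -0.80 with 4 of 9 called lower, against 0.549% of all genes compared there. The 4 were Cd74, the invariant chain, at 2879 and 1638 CPM (-0.81), H2-Aa at 739.8 and 276 CPM (-1.42), H2-Ab1 at 671 and 259.96 CPM (-1.36) and H2-Eb1 at 369.9 and 129 CPM (-1.52). A single exposed barcode held 26.9%, 31.9% and 38.9% of the exposed UMIs of the last 3, and the median Ly6c2-free barcode held no H2-Aa in either library. Cd74 in the median Ly6c2-free barcode was 757 and 574 CPM. In classical monocytes the list was at -1.04 with 7 of 13 genes called lower, against -0.07 and 1.55% over all genes compared there. Of 21 MHC class I genes H2-Q6 was called lower, at 75.7 and 35.3 CPM, and B2m was at -0.47.

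**Figure D5:**
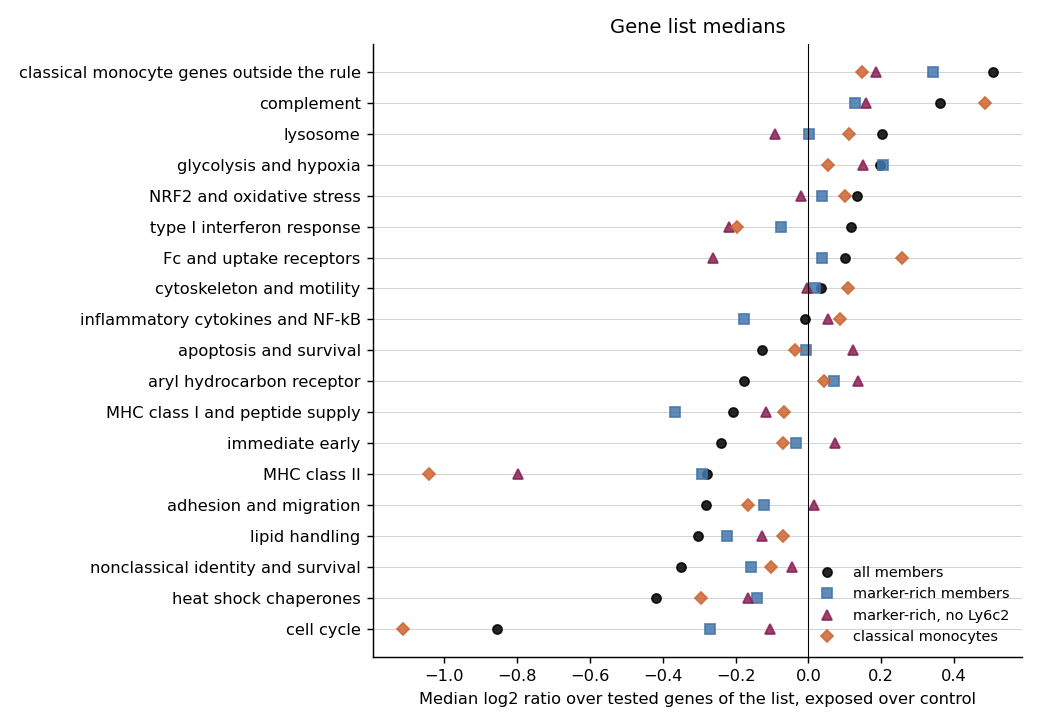
Median log2 ratio of exposed over control (x axis) over the compared genes of 19 lists (y axis) in all members, marker-rich members, Ly6c2-free members (triangles) and classical monocytes. The median of the nonclassical identity list moves from -0.35 in all members to -0.05 in Ly6c2-free members, and that of the MHC class II list from -0.28 to -0.80.

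The medians by list show small values for most pathways. Beside the counts of calls in the lists below, 0.994% of all genes were called in each direction in all members. Of the 31 compared type I interferon genes none was called in all members (median 0.12), and Ifitm2, an antiviral membrane protein, stood at 1650 and 2245 CPM (0.44). Of 25 genes of the NRF2 oxidative stress response none was called (median 0.13), with the ferritin gene Fth1 at 0.19 and the peroxidase gene Prdx1 at 0.59. Hmox1, which degrades haem, stood at 104 and 303 CPM in Ly6c2-free members, a call there with 29.7% of its exposed UMIs over all members in 1 barcode. Of 12 genes of the aryl hydrocarbon receptor pathway, which senses polycyclic hydrocarbons, only 6 had enough UMIs and none was called. Tiparp, its induced repressor, stood at 184 and 125 CPM (-0.56), and the target genes Cyp1a1 and Cyp1b1 had no UMI in any member. Of 24 glycolysis genes 17 were above 1 and none was called (median 0.20), with Eno1 at 194 and 270 CPM (0.47).

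Of 24 lysosome genes 20 had a ratio above 1 and Ctsc, cathepsin C, was called higher at 272 and 507 CPM, but the list's median went from 0.20 in all members to 0.001 in marker-rich members. Of 24 immediate early genes Ier3 was called higher and the median was -0.24. Of 24 cytoskeleton genes none was called (median 0.03), with Vim at 0.56 in all and -0.32 in Ly6c2-free members. The apoptosis list had no call among 22 genes (median -0.13), and Mcl1, a survival factor of myeloid cells, stood at 938 and 1015 CPM. Among 21 Fc and uptake receptors Fcgr1, the high-affinity IgG receptor, was called higher at 33.3 and 71.6 CPM, and Cd36 was 1 of 2 called lower. Of 25 adhesion genes Ccr2 was called higher and Itgal lower (median -0.28). Of 19 lipid genes 1 was called higher and 2 lower, Cd36 and Fabp4 (median -0.30), and Apoe was at -0.30.

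In the remaining 3 lists single barcodes held much of the UMIs of some genes. Among heat shock chaperones 3 of 15 were called lower in all members and none without the barcodes of other types. Hspb1 had 93.0% of its control UMIs in 1 barcode. Among 12 cell cycle genes Stmn1 and Mki67 were called lower, with 45.6% and 53.8% of their control UMIs in 1 barcode, and the list's median went from -0.86 to -0.30 without the other types. Among 9 complement genes 3 were called higher, but all 28 UMIs of Serping1 came from 1 exposed barcode. The complement gene C3 stood at 138 and 171 CPM (0.31).

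Classical monocytes from the same 2 libraries gave 91 of 9112 genes called higher (0.999%) and 141 called lower (1.55%). The members and the classical monocytes share libraries, so their ratios are set side by side only. Il1b stood at 2998 and 6462 CPM in classical monocytes (1.11), Hp at 556 and 1165 CPM (1.07), Wfdc17 at 1021 and 1817 CPM (0.83) and AY036118 at 120 and 260 CPM (1.11), all called higher there too. Wfdc17 was higher by 1.89 in members and by 0.83 in classical monocytes, a difference that has no test with 1 library a group. Ly6c2, which the rule for classical monocytes used together with Ccr2, was at -0.65 and called lower in them, and is given as a description. Spn was at -0.98 and called lower there.

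Shares of members with a UMI gave the same directions at equal depth for the genes listed here. Cxcl10 and Csf1 are not among them: before thinning, the share of members that held either gene was not lower in the exposed library. With each barcode thinned to 1000 UMIs, which left out 1 control member, Il1b was present in 55.5% of control and 76.8% of exposed members, against 11.99% and 9.81% of B cells. Hp was present in 16.6% and 35.9% of members (B cells 2.91% and 2.23%), Wfdc17 in 14.6% and 38.8% (B cells 4.52% and 5.04%), and Saa3 in 0.405% and 5.07% (B cells 0.231% and 0.424%). Cd36 was present in 31.2% and 14.9% of members (B cells 1.66% and 1.38%), and Nr4a1 in 81.0% and 65.2% (B cells 36.7% and 33.2%). Before thinning, at the median depths given above, Il1b was present in 80.2% and 92.0%, Hp in 42.7% and 76.1%, and Cd36 in 59.3% and 44.6% of members. In thinned marker-rich members Wfdc17 was present in 7.26% and 20.9%, Hp in 12.3% and 31.9%, and Cd36 in 39.7% and 22.7%. Thus Il1b, Hp and Wfdc17 were found in more exposed members and Cd36 and Nr4a1 in fewer, and for Wfdc17, Hp and Cd36 the same held among marker-rich members.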

How the data were processed

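Gene counts (UMIs) were deposited by the authors as one matrix per library, for CD45+ lung cells prepared with 10x 3′ chemistry v3.1. Per the submitters' processing notes they come from Cell Ranger 3.1.3 on mm10, while the file headers name version 3.1.0; no other step is recorded in the sources used here. Everything else was computed from these counts with Python 3.11.15, numpy 2.4.6, scipy 1.17.1, pandas 2.3.3 and edgeR 4.0.16 (TMM scaling only). The 248 control and 276 exposed members held 1651917 and 2779077 UMIs, and medians per barcode were 5599 and 8787.5. The members and the gene lists were chosen with earlier results of these data known.

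UMIs were summed per library over members and divided by the sum (CPM). Log2 ratios add 0.5 counts to each sum, and intervals are exact conditional binomial (ratios), Poisson (levels) or Clopper-Pearson (shares), at 95%. Classical monocytes had fewer than 3 UMIs of the 4 markers, at least 3 of Ly6c2 plus Ccr2 and at least 3 of Vcan, F13a1 and Ms4a4c, with the other limits unchanged. B cells had at least 3 UMIs of Cd79a plus Cd79b, and neutrophils at least 5% of UMIs in S100a8 and S100a9. No doublet caller was applied beyond the rule; removing the top simulated-doublet scores, at 0.8% per 1000 barcodes, was an alternative.

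Named genes were the 12 highest and 12 lowest by the interval bound nearest 0, leaving out genes of the rule, mitochondrial, ribosomal, haemoglobin, sex-linked and antigen receptor genes, unnamed models, genes with over 25% of UMIs in 1 barcode and genes below 0.5 times their level in other barcodes. To these came up to 2 abundant members and 2 by bound from each of 20 lists, the rule and marker genes, and 10 genes over classical monocytes. The calculation was tested on simulated data. Reads of near-identical copies (Saa, H2, Ear and Chil genes) may be split or lost in counting, so their levels are uncertain. Gene positions are from GENCODE M21, which matched 31011 of 31053 genes. Alternatives varied the limits, depth, scaling, filters and call fold (23 settings, 5 added after the data were seen).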

Additional observations from a re-analysis of the deposited data

Results flagged for a closer look

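For 3 genes the members and the classical monocytes of the same libraries had ratios in opposite directions with both counting intervals clear of 0, and the difference was not tested, since there is 1 library a group. Ccl2 had a log2 ratio of 3.26 [2.11 to 5.05] in members, on 5 and 88 UMIs, and of -0.69 [-0.97 to -0.40] in classical monocytes. It was at 2.74 without the barcodes of other types, on 5 and 63 UMIs, and at 3.55 in marker-rich members, on 1 and 21 UMIs. Ly6c2-free members held 0 and 1 UMI of Ccl2, too few for a ratio. Hes1 was at -1.11 [-1.39 to -0.84] in members and at 0.94 [0.17 to 1.86] in classical monocytes, where it stood at 6.39 and 12.5 CPM. Tmem176a was at 0.98 [0.67 to 1.31] in members, on 109 and 363 UMIs, and at -0.20 [-0.38 to -0.02] in classical monocytes.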

How the results depend on the processing

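The share of members, at a ratio of 1.15, was 0.890 with the limit on Vcan, F13a1 and Ms4a4c required of all, 0.799 over both monocyte rules, 0.934 in marker-rich, 1.92 in marker-poor and 0.870 in Ly6c2-free members, and 0.865 with the rule at 3000 UMIs. The count of genes called higher in exposed members, 84, became 54 with the classical limit required of all, 20 when thinned to 1000 UMIs, 46 with at least 100 UMIs, 41 beyond 2-fold and 858 beyond 1-fold, and 27, 10 and 16 in marker-rich members, Ly6c2-free members and under the rule at 3000 UMIs. The count of genes called lower in exposed members, also 84, became 12 when thinned, 155 with at least 1 UMI, 31 with at least 100 UMIs, 47 without the top barcode of each gene, 33 beyond 2-fold, 1321 beyond 1-fold, 47 without other types, and 21, 32 and 14 in the last 3 sets. Fewer barcodes or UMIs leave wider intervals; otherwise the cause was not tested. Among list medians whose interval was clear of 0 in all members, those that changed sign were MHC class II (0.10 at a marker sum of 5 or more, 0.10 without other types, 0.94 in marker-poor members) and, in Ly6c2-free members, adhesion (0.0155) and immediate early (0.0725). Among genes called in all members, the sign changed at Saa3 and Vcan (-0.13 each, classical limit), Saa3 (-0.0741, Ly6c2-free), Prtn3 (-0.29) and Ms4a6d (-0.16) in marker-rich members, Ms4a6d (-0.20) and Mmp8 (-0.76) under the rule at 3000 UMIs, Cadm1 (0.79 without other types, 0.11 marker-poor), the log2 ratio of H2-Q6 (0.0681, thinned), Hspb1 (1.12 without its top barcode, 2.58 without other types, 3.38 marker-poor), C4b (-1.66, Ly6c2-free) and Stmn1 (0.84, marker-poor). Under the alternatives 356 list medians stayed within their interval, 36 moved beyond it and the 5 named changed sign. Of the values of named genes 1352 kept their call or interval, 376 moved beyond the interval, 206 lost a call, 33 gained one and the 15 named changed sign. Medians and genes whose interval in all members reached 0 or that were not called could also take the other sign and are not among the 5 and 15, such as the medians of lysosome (-0.0910) and type I interferon genes (-0.22) in Ly6c2-free members. No paired analysis was possible because each group has 1 library.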
